A study of Mus musculus with 6 samples.

Results

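The 10 glycolytic enzymes described here are Hk1, Hk2, Gpi1, Pfkl, Aldoa, Gapdh, Pgk1, Pgam1, Pkm and Ldha. They were found by their symbols in a table of normalized values and by the gene identifiers of those rows in a table of read counts. They are 10 of the 27179 genes with counts and 10 of the 12179 genes with normalized values. RNA-Seq was performed on LT-HSCs, the long-term hematopoietic stem cells, sorted as CD150+CD48-LSK cells from the bone marrow of C57BL/6 mice at 8 weeks of age. The comparison was of 3 WT libraries with 3 libraries from Foxm1 heterozygous mice, called Foxm1 HET. Foxm1 encodes a forkhead transcription factor of the cell cycle. The titles of the Foxm1 HET samples name the floxed allele over the WT allele and no Cre. The study worked with Tie2-Cre, which also acts in endothelium, and with Mx1-Cre, and its description of the RNA-Seq does not say which was used. The study speaks of pairs of mice, and no label says that the mice were littermates or that a library holds 1 mouse. The p-values therefore measure the spread between these libraries. In such bulk RNA, fewer cells of a kind and less RNA per cell cannot be told apart.

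Glycolysis turns glucose into pyruvate in the cytosol. Hexokinases trap glucose as glucose 6-phosphate, which is isomerized, phosphorylated again and split into triose phosphates. The later enzymes form ATP and pyruvate, and lactate dehydrogenase reduces pyruvate to lactate, which regenerates NAD. Quiescent LT-HSCs are known for their reliance on glycolysis in the hypoxic marrow, where hypoxia-inducible factors drive many of these genes.

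The libraries held between 14573002 reads on genes, in Foxm1 HET replicate 2, and 25798509, in Foxm1 HET replicate 3. Genes with at least 10 reads numbered from 4467, again in Foxm1 HET replicate 2, to 9894. Foxm1 itself had 1182, 2615 and 2942 reads in WT, against 659, 5 and 742 in Foxm1 HET, so that every Foxm1 HET library was below every WT library. All 15 markers of LT-HSCs had at least 10 reads in some library, and 9 of them in Foxm1 HET replicate 2. Their summed level was 3443 to 7039 CPM (reads relative to the library total) in WT and 4647 to 6027 in Foxm1 HET. All 7 neutrophil markers had at least 10 reads in every library, with a sum of 4742 to 13700 CPM in WT and of 1179 to 7590 CPM in Foxm1 HET. Erythroid markers summed to 146 to 1127 CPM in WT and 225 to 597 CPM in Foxm1 HET. Of the hemoglobin genes, Hba-a1 was at 0 throughout. Hba-a2 had 70, 508 and 1009 reads in WT, against 332, 2 and 0 in Foxm1 HET. Hbb-bs had 1, 920 and 966 reads in WT, against 145, 507 and 1 in Foxm1 HET. Macrophage markers reached at most 194 CPM, B cell markers 200.2 CPM, T cell markers 124 CPM, endothelial markers 107 CPM and platelet markers 11.9 CPM. C1qa, C1qb, Cd79a, Ms4a1, Ebf1, Cd3d and Cd3g had no read. The part of these other cells in the results below was not tested.

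Stretches of DNA just before a RefSeq start are shown for 4 of the enzyme genes. These were chosen because they hold the core of the hypoxia response element, ACGTG, and no annotated exon. The stretch of Pgam1 did so too and is not shown, since Pgam1 had at most 20 reads. The stretch of Aldoa lies within the gene, before an internal start. The 250 bases before the outermost start of Aldoa held no ACGTG and overlapped annotated exons by 193 bases. The 250 bases before each RefSeq start were searched on both strands for ACGTG, whose reverse complement is CACGT, and for the forkhead core TAAACA. The hypoxia core was found for 6 of the 10 genes (Hk2, Aldoa, Pgk1, Pgam1, Pkm and Ldha). It was found for 18.5% of 27025 genes searched in the same way and in 16.6% of 32851 promoters. A gene with several starts counted if any of its windows held the motif. These shares were not matched for the number of starts or for GC content, which was 61.6% to 69.6% in the enzyme windows with the motif. The Pkm window with the motif overlapped annotated exons by 140 bases. TAAACA was found for 0 of the 10, beside 13.5% of genes, which says only that these letters are not in these windows. The motif also lies within the E-box CACGTG, and at 2 of the 3 places in Ldha the letters were CACGTG. The last 160 bases before that start follow for each of the 4 genes, 5′ to 3′ along the gene. They are from RefSeq on GRCm38.p6, with the motif in capitals. The Ldha stretch is chr7:46845644-46845803 on the plus strand, the Aldoa stretch chr7:126799255-126799414 on the minus strand, the Pgk1 stretch chrX:106186940-106187099 on the plus strand and the Hk2 stretch chr6:82774455-82774614 on the minus strand.
Ldha: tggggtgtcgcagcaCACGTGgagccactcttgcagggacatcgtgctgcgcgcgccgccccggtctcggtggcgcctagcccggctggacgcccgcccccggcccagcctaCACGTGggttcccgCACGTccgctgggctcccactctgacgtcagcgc
Aldoa: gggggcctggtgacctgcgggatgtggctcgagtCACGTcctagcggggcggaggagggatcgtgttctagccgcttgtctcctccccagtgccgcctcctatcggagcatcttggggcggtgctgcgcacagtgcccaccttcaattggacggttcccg
Pgk1: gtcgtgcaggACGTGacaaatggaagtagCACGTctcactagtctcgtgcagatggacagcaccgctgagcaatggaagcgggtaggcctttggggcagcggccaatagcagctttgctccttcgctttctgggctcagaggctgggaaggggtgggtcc
Hk2: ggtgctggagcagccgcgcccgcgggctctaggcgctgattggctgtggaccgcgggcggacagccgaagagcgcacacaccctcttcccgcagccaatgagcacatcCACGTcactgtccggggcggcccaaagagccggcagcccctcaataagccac

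**Figure D1:**
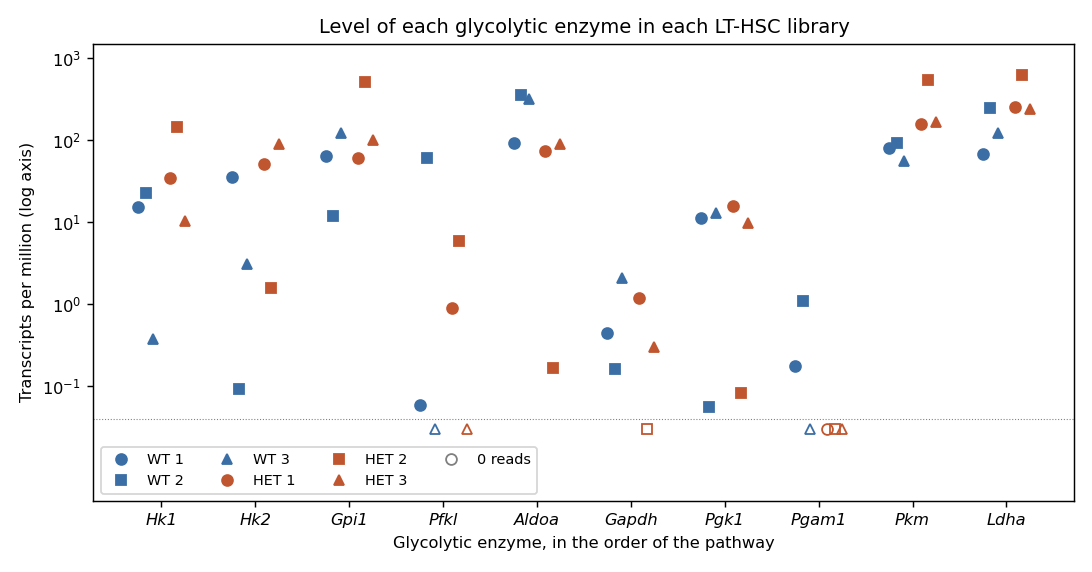
Level of the 10 enzymes in each of the 6 libraries, in TPM (reads per length, relative to the library) on a log axis; each point is 1 library, blue for WT and orange for Foxm1 HET, and open symbols under the dotted line are libraries with 0 reads. Every Foxm1 HET point of Pkm lies above every WT point (159.8 to 551 against 55.3 to 92.5 TPM). Every Foxm1 HET point of Aldoa lies below every WT point, though narrowly (0.165 to 90.7 against 92.6 to 357 TPM).

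Levels were compared between the enzymes as TPM, the reads divided by gene length and scaled to the library total. The order of the mean over 6 libraries was Ldha, Pkm, Aldoa, Gpi1, Hk1, Hk2, Pfkl, Pgk1, Gapdh and Pgam1. Ldha stood at 260 ± 195 TPM (SD, n = 6), Pkm at 185 ± 185, Aldoa at 155 ± 146 and Gpi1 at 146 ± 186. Of the neighbours in this order, only Pgk1, at 8.34 ± 6.70 TPM, exceeded the next gene, Gapdh, at 0.704 ± 0.809 TPM, by more than the larger SD of the pair. The leading enzyme of each library is given without a test or a share over all genes. Aldoa had the highest TPM of the 10 in WT replicates 1, 2 and 3. Ldha had the highest in Foxm1 HET replicates 1, 2 and 3. In WT replicate 1 the lead was narrow, with 92.6 TPM for Aldoa, 81.4 for Pkm and 68.6 for Ldha. Foxm1 HET replicate 2 had 2 reads of Aldoa. The same contrast of Aldoa with Ldha is given below as a ratio, which was chosen after the values had been seen. Ldha was followed by Pkm in each Foxm1 HET library. The 10 enzymes together reached 369, 792 and 639 TPM in WT and 654, 1848 and 709.7 TPM in Foxm1 HET. On this scale the genotypes overlapped. In CPM by library total alone, which ignores length, the sums were 452, 746 and 677 against 808, 2187 and 801. Every Foxm1 HET library was higher on that scale. Unlike the log2 CPM given below, these sums had no TMM scaling between libraries. Whether they overlap with it was not computed, and no share over all genes was set beside them.

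Hexokinases catalyse the entry step. Hk1 (GRCm38 chr10:62268855-62379908, minus strand) encodes the hexokinase of most tissues, which binds mitochondria. It had 643, 1021 and 18 reads in WT, against 1912, 4336 and 508 in Foxm1 HET. WT replicate 3 was far below the rest and Foxm1 HET replicate 2 far above, and the genotypes overlapped. On the log2 CPM scale the means were 3.55 ± 2.85 in WT and 6.22 ± 2.93 in Foxm1 HET (SD, n = 3). The log2 fold change of Foxm1 HET over WT in edgeR's quasi-likelihood test was 3.28 (SE 1.97, 95% interval -0.58 to 7.14, Benjamini-Hochberg adjusted p = 0.938), and it was 0.36 without Foxm1 HET replicate 2.

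Hk2 (chr6:82725025-82774454, minus strand), the inducible hexokinase and a target of hypoxia-inducible factors, had 1823, 5 and 181 reads in WT, against 3481, 58 and 5306 in Foxm1 HET. The lowest library of each genotype was replicate 2, and the ranges overlapped. The log2 fold change was 1.27 (SE 2.27, edgeR adjusted p = 0.998), with 3.87 without WT replicate 1, 0.65 without WT replicate 2 and 0.83 without WT replicate 3. Where Hk2 was lowest, Hk1 was not: in WT replicate 2 Hk1 had 22.8 TPM and Hk2 0.0915 TPM, and in Foxm1 HET replicate 2 Hk1 had 145 TPM and Hk2 1.59 TPM. In WT replicate 3 the order was the other way, with 0.372 TPM for Hk1 and 3.06 TPM for Hk2.

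Gpi1 and Pfkl act on the hexose phosphates. Gpi1 (chr7:34201327-34230305, minus strand), glucose 6-phosphate isomerase, had 1674, 334 and 3755 reads in WT, against 2127, 9810 and 3127 in Foxm1 HET. Foxm1 HET replicate 2 was the highest, and the other Foxm1 HET libraries lay within the WT range. The log2 fold change was 2.34 (SE 1.64, edgeR adjusted p = 0.960) and turned to -0.67 without Foxm1 HET replicate 2. Pfkl (chr10:77986947-78009796, minus strand) encodes the liver type of phosphofructokinase, the committed step. It had 2, 2263 and 0 reads in WT, against 41, 148 and 0 in Foxm1 HET, so 1 library held most of its reads. Its log2 fold change was -2.07 (SE 2.81, edgeR adjusted p = 0.998), while the mean log2 CPM was 0.21 higher in Foxm1 HET. Without WT replicate 2 the fold change was 7.25, so no direction can be given.

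Aldoa (chr7:126795234-126800447, minus strand) encodes aldolase A, which splits fructose 1,6-bisphosphate. It had 1558, 6453 and 6224 reads in WT, against 1623, 2 and 1789 in Foxm1 HET, so in reads the genotypes overlapped. On the scaled log2 CPM scale every Foxm1 HET library was below every WT library, with log2 CPM of 6.14, 8.16 and 8.60 in WT, against 5.42, -1.36 and 5.42 in Foxm1 HET. In edgeR the log2 fold change was -3.12 (SE 1.95, 95% interval -6.93 to 0.69, adjusted p = 0.938). The exact two-sided permutation test gave p = 0.1, the smallest value that 3 libraries against 3 allow. Without Foxm1 HET replicate 2, which had 2 reads, the log2 fold change was -2.48.

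Gapdh, Pgk1 and Pgam1 follow aldolase. Gapdh (chr6:125161852-125165583, minus strand), glyceraldehyde 3-phosphate dehydrogenase, is abundant in most cells. It had 5, 2 and 28 reads in WT, against 18, 0 and 4 in Foxm1 HET and did not pass the filter on low counts. Pgam1 (chr19:41911871-41918665, plus strand), a phosphoglycerate mutase, had 3, 20 and 0 reads in WT, against 0 in every Foxm1 HET library, and also did not pass. Pgk1 (chrX:106187124-106203699, plus strand), a phosphoglycerate kinase that forms ATP, had 185, 1 and 253 reads in WT, against 345, 1 and 193 in Foxm1 HET. In each genotype replicate 2 had 1 read, and the other libraries of WT and Foxm1 HET overlapped. Its log2 fold change was -0.81 (SE 2.98, 95% interval -6.64 to 5.03, edgeR adjusted p = 0.998), and 0.02 with scaling by library size only.

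The low counts of Gapdh, Pgk1 and Pgam1 were set beside the sequence they share with other genes. Among 50-base stretches of their protein-coding transcripts in GENCODE M21, 68.0% of those of Pgk1, 58.4% of those of Gapdh and 41.5% of those of Pgam1 were also present in a transcript of another gene. Matches on either strand were counted. For Gapdh they fell in 230 combinations of gene and transcript type, of which 215 were of a pseudogene type. The share was 24.5% for Gpi1, 23.7% for Pkm, 10.4% for Ldha, 6.57% for Aldoa and 1.64% or less for Hk1, Hk2 and Pfkl. Pgk1, Gapdh and Pgam1 also had the lowest mean TPM of the 10 enzymes. By the median over 6 libraries Pfkl, with 0.483 TPM and a share of 0.053%, was below Pgk1, with 10.5 TPM, since WT replicate 2 held most reads of Pfkl. How reads that match several places were counted is not given in the sources used here, and the part of shared sequence in these counts was not tested. Levels of Pgk1, Gapdh and Pgam1, and to a lesser degree of Gpi1 and Pkm, are therefore uncertain.

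**Figure D2:**
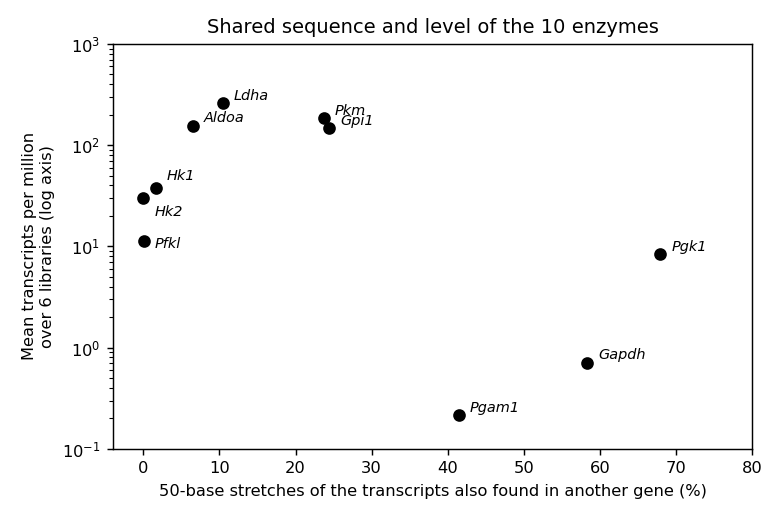
Mean TPM over 6 libraries (log axis) against the share of 50-base transcript stretches that another gene also holds, in percent; each point is 1 enzyme. Pgk1, Gapdh and Pgam1 lie to the right, with shares of 41.5% to 68.0% and a mean of 8.34 TPM or less.

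Pkm and Ldha catalyse the last steps. Pkm (chr9:59656368-59679375, plus strand) encodes the pyruvate kinase of muscle and of proliferating cells, whose splice forms are not told apart in counts per gene. It had 1950, 2381 and 1541 reads in WT, against 5046, 9496 and 4757 in Foxm1 HET. Every Foxm1 HET library was above every WT library in reads, in TPM and in CPM with TMM scaling, while with RLE scaling the genotypes overlapped. The log2 CPM was 6.46, 6.72 and 6.59 in WT, against 7.05, 10.52 and 6.83 in Foxm1 HET. The WT range of 0.26 was smaller than that of all but 0.366% of the genes tested. The log2 fold change was 2.56 (SE 1.65, 95% interval -0.66 to 5.79, edgeR adjusted p = 0.941), and the exact permutation test gave p = 0.1. Without Foxm1 HET replicate 2 the log2 fold change was 0.40, and the groups did not overlap, as in 21.6% of all genes tested with these 5 libraries. With scaling by library size only and without that replicate it was 1.08.

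Ldha (chr7:46845804-46855627, plus strand), the lactate dehydrogenase subunit that favours lactate, had 1221, 4689 and 2575 reads in WT, against 5975, 8018 and 4978 in Foxm1 HET. All reads of Foxm1 HET were above those of WT, while the log2 CPM of 5.79, 7.70 and 7.33 in WT, against 7.29, 10.27 and 6.90 in Foxm1 HET overlapped. The log2 fold change was 1.84 (SE 1.61, 95% interval -1.32 to 4.99, edgeR adjusted p = 0.985), and 0.02 without Foxm1 HET replicate 2. The exact permutation test of log2 CPM gave p = 0.6.

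Together, 8 of the 10 enzymes passed the filter on low counts. None of the 8 had an adjusted p under 0.05 in edgeR, beside 27 of 8195 genes tested, or 0.329%. At an unadjusted p under 0.05 the count was 0 of 8, beside 494 genes or 6.03%. Under other settings, Hk1 with RLE scaling and Aldoa with DESeq2 and with limma on log2(CPM + 1) were under 0.05 unadjusted, with adjusted p of 0.676, 0.329 and 0.9999. The genotypes did not overlap in 2 of the 8 enzymes, Pkm and Aldoa, beside 711 genes or 8.68%. The fitted log2 fold change was above 0 for 5 enzymes and below 0 for 3, with a median of 1.56 beside -0.26 over all genes tested. Without Foxm1 HET replicate 2 it was above 0 for 4 and below 0 for 4, with a median of -0.076 beside -0.30. The median range within WT was 4.61 on the log2 CPM scale for the enzymes and 5.67 for all genes tested. At most 3 reads in some library were found for 3 of the 8 enzymes and for 58.2% of the genes tested. Foxm1 HET replicate 2 was the highest library for Hk1, Gpi1, Pkm and Ldha and the lowest for Aldoa and Gapdh in TPM.

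**Figure D3:**
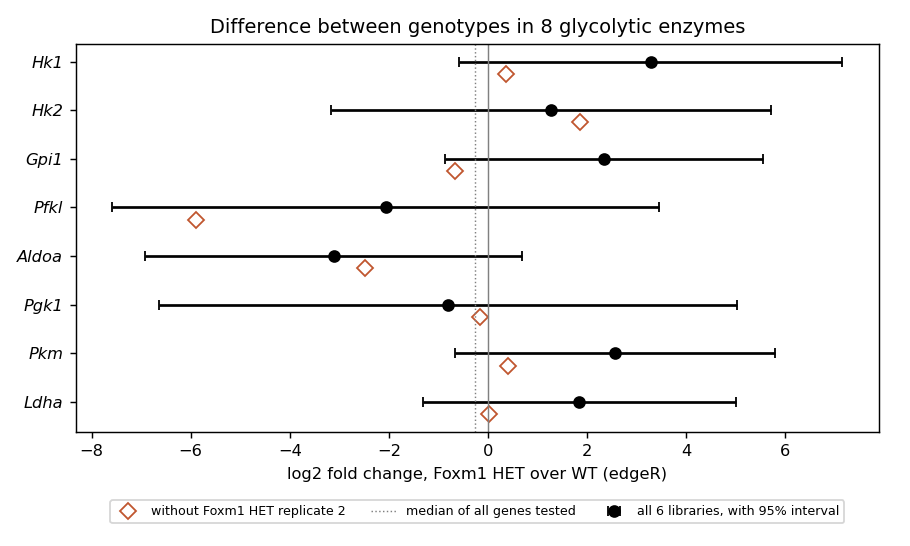
Log2 fold change of Foxm1 HET over WT for the 8 enzymes that passed the filter, from edgeR, with 95% intervals (black) and the value without Foxm1 HET replicate 2 (open diamonds); the dotted line is the median of all genes tested. Every interval spans 0, and the diamonds of Hk1, Gpi1, Pkm and Ldha lie between -0.67 and 0.40.

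The normalized table of the authors holds log2 values with nearly the same distribution in every library, so that the levels can be read as ranks. In it, Ldha and Pkm were above all WT values in each Foxm1 HET library. Ldha was at 6.03, 7.66 and 6.98 in WT, against 8.42, 8.89 and 7.98 in Foxm1 HET, a difference of 1.54 (SE 0.83, limma adjusted p = 0.930). Pkm was at 6.32, 6.28 and 5.96 in WT, against 7.62, 8.72 and 7.35 in Foxm1 HET, a difference of 1.71 (SE 0.79, limma adjusted p = 0.930). Without Foxm1 HET replicate 2 the differences were 1.31 for Ldha and 1.30 for Pkm, and neither overlapped, as was the case for 19.9% of all genes with these 5 libraries. Aldoa was at 6.51, 8.23 and 8.19 in WT, against 6.15, 2.34 and 6.10 in Foxm1 HET, a difference of -2.78 (SE 1.28, limma adjusted p = 0.930). Without Foxm1 HET replicate 2 the difference of Aldoa was -1.52. Gapdh was the other enzyme whose genotypes did not overlap in these values, with a difference of -1.30 (SE 0.85, limma adjusted p = 0.930). It had at most 28 reads. In reads (5, 2 and 28 in WT, against 18, 0 and 4 in Foxm1 HET) its genotypes did overlap. They also did in TPM, with 0.440, 0.164 and 2.12 in WT, against 1.20, 0 and 0.300 in Foxm1 HET. With Gapdh, 4 of 10 enzymes did not overlap in the normalized values, beside 9.64% of the 12179 genes. The percentile of Pkm went from 85.5 to 88.1 in WT to 94.4 to 98.5 in Foxm1 HET, and that of Aldoa from 89.5 to 97.5 to 55.0 to 86.9.

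**Figure D4:**
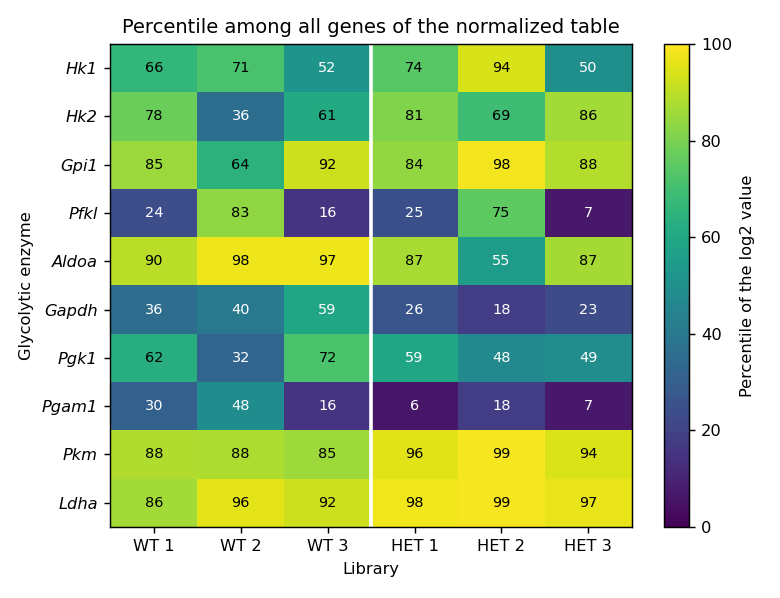
Percentile of each enzyme among the 12179 genes of the normalized table, by library; columns left of the white line are WT and those right of it Foxm1 HET, and brighter cells are higher. Pkm and Ldha are at 94.4 or above in every Foxm1 HET library, while Pgam1 and Gapdh are at 26.5 or below there.

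The ratio of 2 enzymes within a library needs no scaling between libraries, and was chosen after the values had been seen. The ratio of Ldha to Aldoa, per length, was 0.741, 0.687 and 0.391 in WT. It was 3.48, 3789 and 2.63 in Foxm1 HET. In Foxm1 HET replicate 2 the ratio rests on 2 reads of Aldoa and has a 95% exact binomial interval of 1049 to 31291, which covers counting error only. All Foxm1 HET libraries were above 1 and all WT libraries below 1. The exact permutation test over the 6 libraries gave p = 0.1, which any ratio without overlap gives. As the ratio was chosen after the values had been seen, this p only describes it. Of the 28 pairs of the 8 enzymes, 5 had ratios that did not overlap between the genotypes, beside 9.23% of all pairs of genes tested. Of these 5, 4 had Aldoa as a partner (with Ldha, Pkm, Gpi1 and Hk2), and the remaining pair was Hk2 and Pgk1. The 4 pairs share the values of Aldoa.

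**Figure D5:**
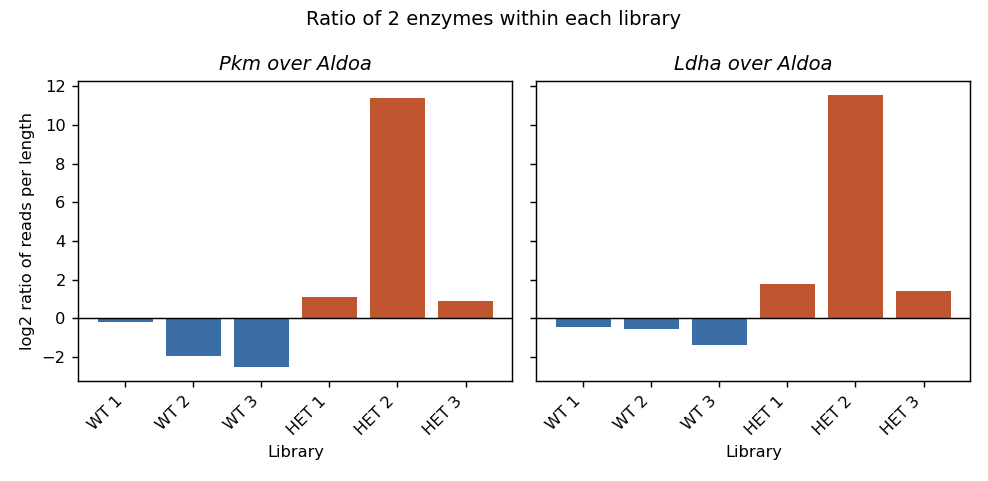
Log2 ratio of reads per length of Pkm (left) and Ldha (right) to Aldoa in each library, with 0.5 reads added to each count; blue bars are WT and orange bars Foxm1 HET. Bars of WT are below 0 and bars of Foxm1 HET above 0, and the tall bar of HET 2 rests on 2 reads of Aldoa.

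Other genes of the pathway were taken from lists. Of 20 other glycolytic enzymes and isoforms, 8 were tested, 4 with a fold change above 0 and 4 below, with a median of 0.16. None passed an adjusted p of 0.05. Hk3, the hexokinase of myeloid cells, had the smallest p, with 776, 11 and 485 reads in WT, against 1162, 25918 and 1145 in Foxm1 HET (log2 fold change 5.95, SE 1.74, edgeR adjusted p = 0.105). Its highest library, Foxm1 HET replicate 2, was also the highest for Hk1. Eno2, the neuronal enolase, came next with 48, 0 and 0 against 26, 245 and 0 reads (4.14, SE 3.36, edgeR adjusted p = 0.982). Ldhb, which encodes the subunit that pairs with that of Ldha, had 5, 0 and 3 reads in WT, against 546, 0 and 0 in Foxm1 HET and was not tested.

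Of 8 transporters of glucose and lactate, 5 were tested, 2 above 0 and 3 below, with a median log2 fold change of -0.38 and none with an adjusted p under 0.05. Slc2a1, the glucose transporter GLUT1, had 42, 2 and 0 reads in WT, against 1540, 4 and 715 in Foxm1 HET (4.86, SE 3.41, edgeR adjusted p = 0.960). Slc16a7, a monocarboxylate transporter, had 388, 0 and 26 against 7, 1 and 99 reads (-2.81, SE 3.15, edgeR adjusted p = 0.998). Of 15 regulators of glycolysis and hypoxia factors, 9 were tested, 4 above 0 and 5 below, with a median of -0.62 and none with an adjusted p under 0.05. Egln3, a prolyl hydroxylase that marks hypoxia-inducible factors for decay, had 7, 21624 and 4 reads in WT, against 641, 8 and 89 in Foxm1 HET, so 1 library set its value (-5.56, SE 2.12, edgeR adjusted p = 0.441). Pfkfb3, which makes the activator of phosphofructokinase, had 2507, 142 and 5567 against 24, 3 and 1752 reads (-3.44, SE 2.20, edgeR adjusted p = 0.941).

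Of 14 genes for the entry of pyruvate into mitochondria, 9 were tested, 5 above 0 and 4 below, with a median log2 fold change of 0.84 and none with an adjusted p under 0.05. The genotypes did not overlap in log2 CPM for 1 of these 9 genes, Pdk3, beside 8.68% of all genes tested. Pdk3, a kinase that inhibits pyruvate dehydrogenase, had 255, 209 and 17 reads in WT, against 573, 10567 and 971 in Foxm1 HET (6.26, SE 1.999, edgeR adjusted p = 0.179). Pdp2, a phosphatase with the opposite action, had 593, 0 and 2114 against 100, 5 and 500 reads (-3.37, SE 2.81, edgeR adjusted p = 0.982).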

How the data were processed

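Total RNA of sorted LT-HSCs was sequenced in 3 WT and 3 Foxm1 HET samples as single reads. The labels name ribosomal depletion and a stranded kit, and the methods of the study name a Clontech kit. The authors deposited 2 tables, one of raw counts and gene lengths and one of log2 normalized values. The submitters' processing notes name STAR 2.7.2b, GRCm38 (mm10) and limma. The counting program and its use of strand and of reads with several matches are not given in the sources used here. In the normalized table, genes ranked within each library as reads divided by gene length did, and the library medians lay between 1.851 and 1.857.

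Samples were grouped by the genotype label. TPM was computed from counts and lengths. Counts were tested with edgeR 4.0.16 in R 4.3.3 (filterByExpr, TMM scaling, quasi-likelihood test without a replicate block, Benjamini-Hochberg adjustment over 8195 genes), and log2 CPM used a prior of 2 reads. Normalized values were tested with limma 3.58.1. Exact permutation tests were two-sided. The edgeR test was tried on simulated counts, and the outcome is not used here. The common biological coefficient of variation in edgeR was 1.656. With this spread and 3 libraries per genotype, the lack of a call does not show equal levels. Alternatives were other scalings and filters, DESeq2 1.42.0, limma-voom, 2 pseudocounts, the normalized table, a replicate block and each library left out. The enzymes and lists were chosen with earlier results of these data known. All 10 enzymes are named, and of each other list the 2 genes with the smallest p. Ldhb and the ratios were added after values had been seen. Depth per library was 14573002 to 25798509 reads. Promoter stretches came from RefSeq on GRCm38.p6.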

Additional observations from a re-analysis of the deposited data

How the results depend on the processing

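No enzyme had an adjusted p under 0.05 among those tested under 17 settings, or 2 more added after seeing the data. DESeq2 gave a p for only 3 of the 8 enzymes (Hk2, Aldoa and Pgk1), and only 4 had at least 10 counts in every library (Hk1, Gpi1, Pkm and Ldha). The count of genes called was 27 (26 higher in Foxm1 HET, 1 lower). It was 10 with RLE scaling, 43 with upper-quartile scaling, 7 with library size only (6 higher, 1 lower), 194 with DESeq2 and 4 with limma-voom. It was 0 (unadjusted p under 0.05 in 157 genes) with at least 10 counts in every library, 0 (358 genes) with limma on log2(CPM + 1), 0 (339) with limma on log2(CPM + 0.1), 0 (576) with limma on the normalized table, and 0 (642) on that table or 0 (647) with edgeR and library size only when Foxm1 HET replicate 2 was left out. Leaving out 1 library gave 0 to 29 calls: 0 (615, 549 and 626 genes at an unadjusted p under 0.05 in edgeR) without WT replicate 1, WT replicate 2 or Foxm1 HET replicate 2, and 1 without WT replicate 3. The replicate block gave 0 calls (108 genes). Same-numbered libraries deviated with correlations of 0.016, -0.025 and -0.069. At most 3 reads in some library were found for 58.2% of the genes tested. The correlations therefore cannot tell whether same-numbered mice shared a litter or a day. Of the 6 libraries, only Foxm1 HET replicate 1 correlated best with its own number. The scaling moved the median of all genes from -0.26 to -0.13 with RLE, 0.14 with upper-quartile scaling and 0.10 with library size only.

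The enzymes whose genotypes did not overlap numbered 2. They numbered 1 with RLE scaling and with DESeq2 (Aldoa), 1 of 4 with at least 10 counts in every library (Pkm), and 4 of 10 in the normalized table. With fewer libraries compared, they numbered 6 of 10 in that table without Foxm1 HET replicate 2, beside 19.9% of all genes, and 2 to 3 when 1 library was left out of the counts, beside 15.0% to 21.6%. The fold change of Pgk1 turned to 0.022 with library size only, 0.59 with that and without Foxm1 HET replicate 2, 0.11 with limma-voom and 0.10 without WT replicate 3. That of Pfkl turned to 0.30 with limma-voom, 0.17 on log2(CPM + 0.1), 0.47 with the replicate block and 7.25 without WT replicate 2. That of Gpi1 turned to -0.67 without Foxm1 HET replicate 2, and that of Hk1 to -0.077 in the normalized table without that library. The cause of these turns was not tested. Ranges when 1 library was left out were -1.59 to 0.10 for Pgk1, -5.89 to 7.25 for Pfkl and -0.67 to 3.58 for Gpi1. Gapdh and Pgam1 had at most 28 and 20 reads and did not pass edgeR's filter.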

Other observations

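Pathways beside glycolysis were described by the same lists. Of 8 genes of the pentose phosphate pathway, which draws on glucose 6-phosphate, 7 were tested, 1 with a log2 fold change above 0 and 6 below, with a median of -1.03 and none with an adjusted p under 0.05. Pgd, which oxidizes 6-phosphogluconate, had 1256, 219 and 2432 reads in WT, against 2636, 17657 and 4806 in Foxm1 HET (3.74, SE 1.63, edgeR adjusted p = 0.658). The highest WT library was below every Foxm1 HET library in reads, though not after scaling. G6pdx, the enzyme of the entry step, had 2921, 2038 and 3845 reads against 7333, 4 and 745 (-1.13, SE 1.90, edgeR adjusted p = 0.998).

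Of 17 genes of the tricarboxylic acid cycle, 15 were tested, 8 above 0 and 7 below, with a median of 0.04 and none with an adjusted p under 0.05. Sucla2, a subunit of succinyl-CoA ligase, had 18, 287 and 8 reads in WT, against 1309, 9874 and 91 in Foxm1 HET (6.80, SE 2.07, edgeR adjusted p = 0.135). Idh3b, a subunit of isocitrate dehydrogenase, had 466, 9010 and 6137 reads against 145, 297 and 3035 (-2.72, SE 1.87, edgeR adjusted p = 0.959). Foxm1 HET replicate 2 was the highest library for Pgd and Sucla2, as it was for Hk1, Gpi1, Pkm, Ldha, Hk3 and Pdk3.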
